A study of Mus musculus with 9 samples.

Results

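Red cells move gas, water and ions through a small set of abundant proteins, and 7 of the genes that encode them were followed here: Car1, Car2, Aqp1, Piezo1, Kcnn4, Slc12a4 and Slc12a7. They were chosen by name, as the main red cell carbonic anhydrases, the water channel and the channels and cotransporters that set cell volume, and all 7 were found among the 20368 genes of the deposited table. RNA sequencing was done on erythroblasts sorted from mouse spleen as CD71+Ter119+ cells. The libraries came from 4-week-old C57BL/6 mice, with 3 knockout (Dhh-/-), 3 heterozygous (Dhh+/-) and 3 wildtype libraries. The knockout mice lack both copies of Dhh (Desert hedgehog, a secreted Hedgehog ligand) and the heterozygous mice lack 1. The labels give no tissue restriction of the deletion. Nor do they tell whether 1 mouse gave 1 library, so p-values measure only the spread between these libraries.

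Carbonic anhydrases speed the exchange of carbon dioxide and bicarbonate, which lets red cells carry carbon dioxide from tissue to lung. Water crosses the red cell membrane mainly through aquaporin 1. Cell volume follows the loss of potassium: PIEZO1 opens on stretch and admits calcium, calcium opens the potassium channel KCNN4 (the Gardos channel), and potassium chloride cotransporters let potassium and chloride leave together, with water following. In people, changes in PIEZO1 or KCNN4 cause hereditary xerocytosis, in which red cells lose water.

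All 7 genes were detected in every library, and their levels spanned the range from one of the most abundant messages of the cell to one near the limit used for testing. None differed between genotypes beyond the spread of the libraries in any of the 3 comparisons. The largest variation was between libraries of the same genotype and lay in Slc12a7, whose level also moved with sequencing depth and with the transcripts of other cells. Across the libraries, several of the genes moved together or in opposite directions. In 2 of these relations, Pearson's r still had an unadjusted exact permutation p below 0.05 without 2 libraries. They were Piezo1 with Slc12a4 (same direction) and Aqp1 with Slc12a7 (opposite directions). The libraries left out were those farthest from the median of the gene named first. Choosing them by the other gene was not tried. By Spearman's rho over all 9 libraries, 0 of the 28 relations passed an adjusted p of 0.05.

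The promoters of these 4 genes are shown because their levels moved together or apart. Each sequence is the 250 bases before the RefSeq transcription start in GRCm38.p6, read 5′ to 3′ on the gene's own strand. Capitals mark every match, on either strand, to CCNCNCCC or to GAGGAA (the core of a PU.1 site). CCNCNCCC covers the CACCC-type site of the KLF family, to which the erythroid factor KLF1 belongs. It also takes in forms without CACCC, such as CCCCGCCC, so a match is not in itself an erythroid site. Adjoining or overlapping matches run into each other. The Piezo1 window lies at chr8:122551330-122551579 on the minus strand, Slc12a4 at chr8:105966116-105966365 on the minus strand, Aqp1 at chr6:55336049-55336298 on the plus strand and Slc12a7 at chr13:73763410-73763659 on the plus strand.
Piezo1: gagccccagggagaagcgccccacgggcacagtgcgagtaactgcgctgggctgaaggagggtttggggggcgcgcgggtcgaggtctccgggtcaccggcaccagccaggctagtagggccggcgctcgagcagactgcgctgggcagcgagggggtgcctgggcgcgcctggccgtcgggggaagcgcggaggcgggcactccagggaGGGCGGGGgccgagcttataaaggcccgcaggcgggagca
Slc12a4: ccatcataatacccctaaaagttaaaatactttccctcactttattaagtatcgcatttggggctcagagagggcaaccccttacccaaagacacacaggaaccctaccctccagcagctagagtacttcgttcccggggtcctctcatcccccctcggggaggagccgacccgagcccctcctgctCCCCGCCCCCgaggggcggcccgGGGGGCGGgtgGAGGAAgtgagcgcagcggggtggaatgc
Aqp1: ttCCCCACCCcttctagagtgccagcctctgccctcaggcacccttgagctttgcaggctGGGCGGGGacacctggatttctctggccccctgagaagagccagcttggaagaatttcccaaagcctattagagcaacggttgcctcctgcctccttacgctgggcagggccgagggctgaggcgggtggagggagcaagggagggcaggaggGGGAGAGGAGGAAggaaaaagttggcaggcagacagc
Slc12a7: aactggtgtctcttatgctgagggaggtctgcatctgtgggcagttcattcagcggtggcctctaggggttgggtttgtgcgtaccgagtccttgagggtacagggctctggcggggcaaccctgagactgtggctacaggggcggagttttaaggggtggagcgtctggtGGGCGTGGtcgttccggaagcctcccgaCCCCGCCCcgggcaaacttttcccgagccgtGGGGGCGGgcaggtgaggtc

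RefSeq windows were matched for 5 of the 7 genes, these 4 and Kcnn4. CCNCNCCC was found once in the Piezo1 window and 3 times each in the windows of Slc12a4, Aqp1, Slc12a7 and Kcnn4. RefSeq has a second Slc12a7 start, whose window at chr13:73763447-73763696 overlaps the printed one and held 4 matches. Both Slc12a7 windows lie inside the gene as GENCODE M21 places it, which starts at 73733094. No window before that start was examined. In Slc12a4, 2 of its 3 matches overlapped each other. GAGGAA was found once in Slc12a4 and once in Aqp1, where it shared a base with a CCNCNCCC match. GATAA, the GATA factor motif, was in none of these windows. Of all 32851 promoter windows of this length, 45.9% held CCNCNCCC, 23.2% held GAGGAA and 22.6% held GATAA, so these motifs are common and the matches describe the sequences only.

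The libraries held 7.05 to 14.23 M recovered reads. 5 were deeper, at 13.05 M or more (knockout 1 and 3, heterozygous 1 and 3, wildtype 3), and 4 were shallower, at 9.66 M or fewer. Erythroblast genes were abundant. The transferrin receptor gene Tfrc (CD71) averaged 487 ± 125 FPKM in knockout, 444 ± 53.0 FPKM in heterozygous and 477 ± 4.05 FPKM in wildtype libraries (SD, n = 3 each). Gata1, the erythroid transcription factor gene, averaged 211 ± 34.3 FPKM in knockout, 198 ± 7.98 FPKM in heterozygous and 219 ± 34.85 FPKM in wildtype libraries. Klf1, which encodes another erythroid factor, averaged 368 ± 52.4 FPKM in knockout, 341 ± 16.2 FPKM in heterozygous and 377 ± 50.5 FPKM in wildtype libraries. Dhh was at 0 in all libraries but heterozygous 1, where it had 0.0267 FPKM, and the genotypes therefore could not be checked from it. Transcripts of other spleen cells were also present. The summed level of 9 macrophage and monocyte markers ran from 422 to 1416 FPKM in knockout, 703 to 892 FPKM in heterozygous and 136 to 1367 FPKM in wildtype libraries, with none of the 9 at 0. B cell markers summed to between 70.6 and 1117 FPKM and neutrophil markers to between 251 and 1588 FPKM, with both extremes of the B cell sum in wildtype libraries. Endothelial and stromal markers summed to at most 13.4 FPKM.

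Values are given as FPKM, reads per gene length scaled by a size factor for each library, so that levels can be compared between genes. Differences are on the log2(FPKM + 1) scale. That scale understates the change of low genes, such as Slc12a7, more than that of the others.

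Car2 encodes the fast cytosolic carbonic anhydrase of red cells and lies on chromosome 3 (mm10, 14886273 to 14900770, plus strand, ENSMUSG00000027562). It was the 6th most abundant gene of the table by mean FPKM. Its level was 2540, 2491 and 2746 FPKM in the knockout libraries 1 to 3. It was 2155, 2755 and 2286 FPKM in the heterozygous libraries and 2884, 2873 and 2396 FPKM in the wildtype libraries. The highest values were in wildtype 1 and 2 and the lowest in heterozygous 1, and the 3 groups overlapped. Over the 9 libraries it varied 1.34-fold, and the SD of its log2 values stood at the 18.2 percentile of all 9543 genes tested.

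Car1, the slower cytosolic isozyme, is its neighbour on the same chromosome (14766216 to 14808368, minus strand, ENSMUSG00000027556), with 77905 bases between them. Its level was 253, 186 and 258 FPKM in the knockout libraries. It was 215, 252 and 247 FPKM in the heterozygous libraries and 215, 204 and 418 FPKM in the wildtype libraries. Wildtype 3 was far above the other 8 libraries, which lay within 186 and 258 FPKM, and the groups overlapped. Its SD of log2 values was at the 78.3 percentile.

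Car2 and Car1 made up nearly all of the carbonic anhydrase message. Of the summed FPKM of the 16 family members, Car2 took 84.9% to 93.1% and Car1 6.60% to 14.8%, with the lowest Car2 share and the highest Car1 share both in wildtype 3. Car13, another cytosolic isozyme, and Car15, a membrane-anchored one, were the next most abundant, at 2.99 ± 0.638 and 3.05 ± 0.829 FPKM over all 9 libraries. Car4 and Car10 were listed at 0 in every library.

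Aqp1, the red cell water channel, lies on chromosome 6 (55336432 to 55348555, plus strand, ENSMUSG00000004655) and ranked 52nd by mean FPKM. Its level was 771, 634 and 908 FPKM in the knockout libraries. It was 681, 744 and 791 FPKM in the heterozygous libraries and 712, 776 and 938 FPKM in the wildtype libraries. Knockout 3 and wildtype 3 were the highest and knockout 2 the lowest, and the groups overlapped. Aqp1 took 93.3% to 96.1% of the summed FPKM of the 12 aquaporin genes. Nearly all of the rest was Aqp9, a channel that also passes glycerol, at 3.67% to 6.51%. Aqp2, Aqp5, Aqp6 and Aqp12 were listed at 0 in every library.

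**Figure D1:**
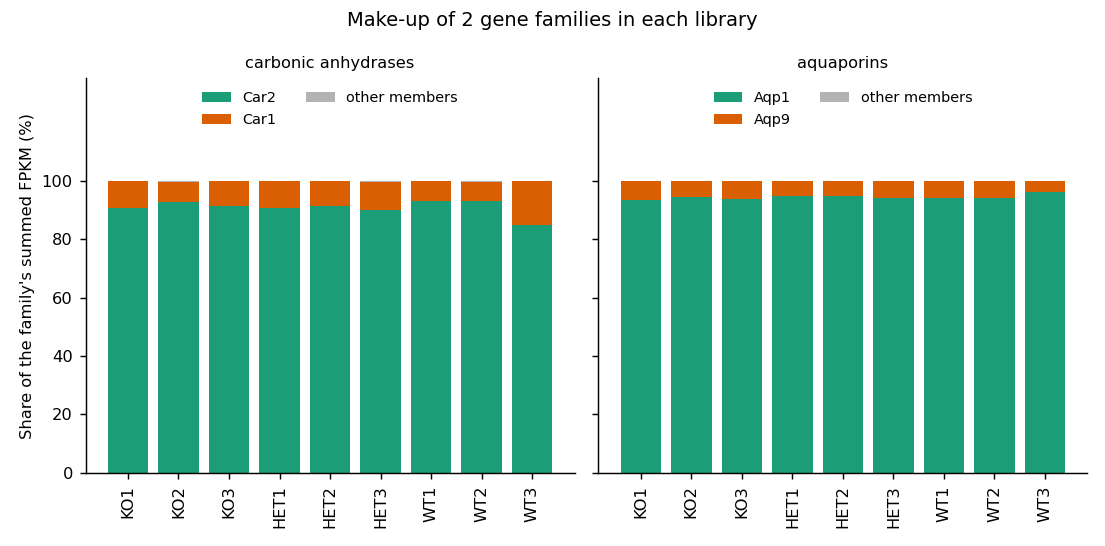
Share of the summed FPKM (percent, vertical axis, 0 to 100) held by each gene in the carbonic anhydrase and aquaporin families, with 1 stacked bar for each library, knockout (KO), heterozygous (HET) and wildtype (WT) from left to right. Car2 (84.9% to 93.1%) and Aqp1 (93.3% to 96.1%) fill most of their bars, and Car1 is largest in wildtype 3, at 14.8%.

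Piezo1, the stretch-activated cation channel, lies on chromosome 8 (122481698 to 122551329, minus strand, ENSMUSG00000014444). Its level was 22.85, 19.1 and 20.3 FPKM in the knockout libraries. It was 23.6, 24.8 and 19.8 FPKM in the heterozygous libraries and 17.9, 18.7 and 25.3 FPKM in the wildtype libraries. Wildtype held both the lowest and the highest value, so both other groups lay inside its range. Piezo1 shares 2441 exon bases with Ctu2 on the opposite strand. Ctu2 was low, at 1.83 to 3.11 FPKM, and since the sources used here do not say whether counting used strand, reads from these bases cannot be told apart.

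Kcnn4, the calcium-activated potassium channel, lies on chromosome 7 (24370263 to 24386690, plus strand, ENSMUSG00000054342) and was more abundant than Piezo1 in every library. Its level was 308, 228 and 326 FPKM in the knockout libraries. It was 278.5, 255 and 286.5 FPKM in the heterozygous libraries and 234, 286 and 268 FPKM in the wildtype libraries. Knockout held both the highest and the lowest value. The spread over the 9 libraries was 1.43-fold, at the 28.2 percentile of all genes tested.

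Slc12a4 encodes KCC1, the broadly expressed potassium chloride cotransporter, and lies on chromosome 8 (105943590 to 105966097, minus strand, ENSMUSG00000017765). Its level was 12.4, 9.86 and 10.2 FPKM in the knockout libraries. It was 13.7, 13.4 and 11.9 FPKM in the heterozygous libraries and 8.27, 11.2 and 16.2 FPKM in the wildtype libraries. Wildtype again held both extremes. Slc12a4 shares 361 exon bases with an antisense gene, Gm16156, whose reads cannot be told apart from its own without strand.

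Slc12a7 encodes KCC4, a second cotransporter of the same family, and lies on chromosome 13 (73733094 to 73816754, plus strand, ENSMUSG00000017756). Its level was 2.44, 8.62 and 1.78 FPKM in the knockout libraries. It was 4.46, 6.60 and 3.09 FPKM in the heterozygous libraries and 5.23, 4.71 and 0.292 FPKM in the wildtype libraries. Wildtype 3 was the lowest and knockout 2 the highest, 29.6-fold apart, and the groups overlapped. The lowest value rested on 20 reads and the other 8 on 119 to 418 reads. The SD of its log2 values was at the 97.3 percentile of all genes tested, against 18.2 to 78.3 for the other 6 genes.

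Slc12a7 was the only 1 of the 7 genes whose deeper and shallower libraries did not overlap: 0.292 to 4.46 FPKM in the 5 deeper and 4.71 to 8.62 FPKM in the 4 shallower libraries. Each genotype had libraries of both kinds. Other transcripts split the same way. T and natural killer cell markers summed to 9.31 to 49.1 FPKM in the deeper and 88.3 to 102 FPKM in the shallower libraries. Late erythroid genes (hemoglobin, heme synthesis and other genes of maturing red cells) summed to 14710 to 19310 FPKM in the deeper and 27030 to 30930 FPKM in the shallower libraries. Of these genes, Slc4a1 and Trim10 overlapped between deeper and shallower libraries, and the others found in the table were apart. The summed megakaryocyte and platelet markers ran the other way, though narrowly. They were at 44.0 to 61.4 FPKM in the deeper and 38.8 to 43.8 FPKM in the shallower libraries. The sum came mostly from Gp9, Itga2b and Vwf, which averaged 26.8, 12.2 and 6.68 FPKM over all 9 libraries. Pf4 and Ppbp averaged 0.549 and 0.209 FPKM, Gp6 was listed at 0 in every library and Gp1bb was not found in the table. None of these markers found in the table was apart by itself. Gp9, the most abundant, had 24.2 FPKM in heterozygous 1 (deeper) and 29.4 FPKM in heterozygous 2 (shallower). The sums of macrophage and monocyte markers overlapped, at 136 to 892 FPKM in the deeper and 703 to 1416 FPKM in the shallower libraries. The Slc12a7 level was highest in knockout 2, where the macrophage and monocyte markers summed to 1416 FPKM, and lowest in wildtype 3, where they summed to 136 FPKM. The part of depth, of red cell maturation or of other cells in the level of Slc12a7 was not tested. In sorted bulk RNA, fewer cells of a type and less RNA per cell cannot be told apart.

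**Figure D2:**
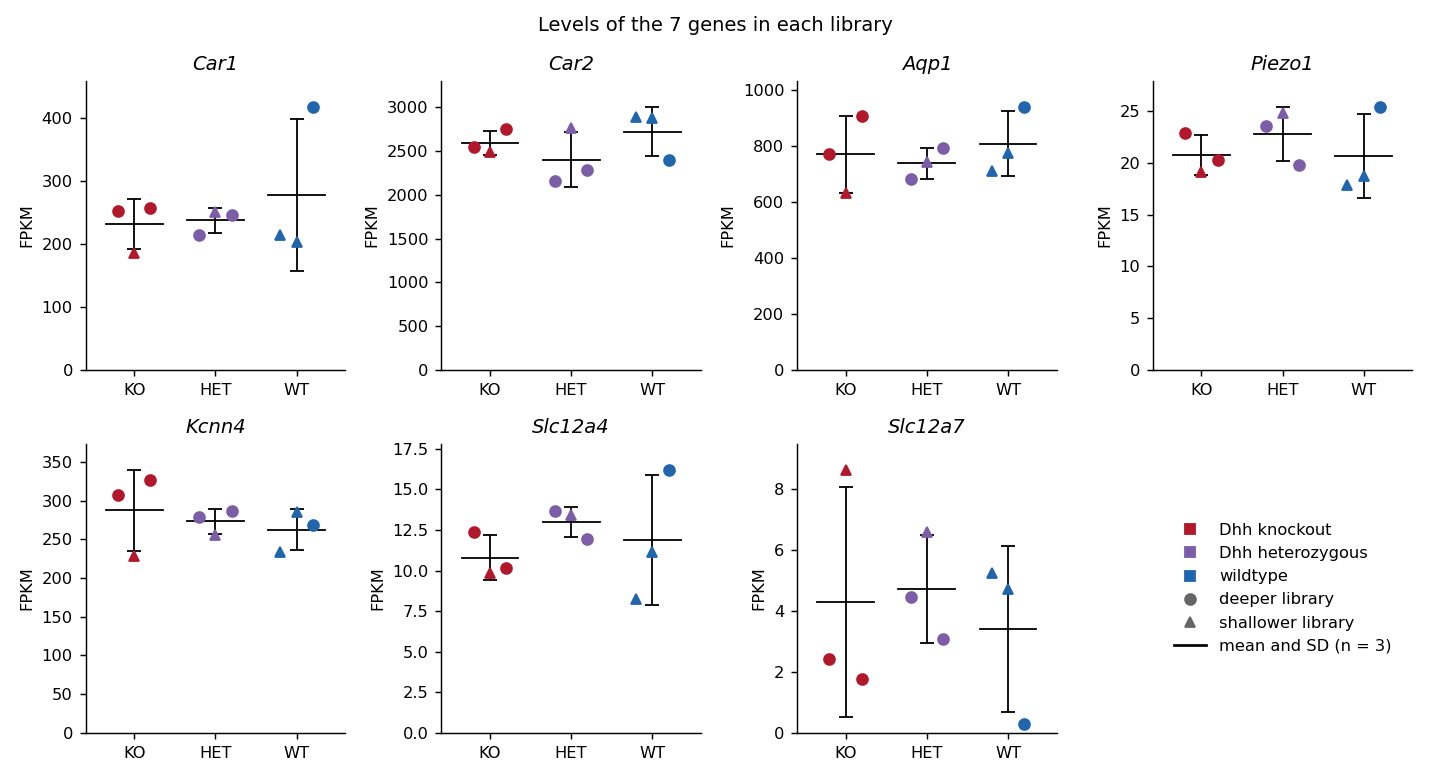
Level of each of the 7 genes in FPKM (vertical axes, one panel a gene, each starting at 0) in the 3 knockout (KO), 3 heterozygous (HET) and 3 wildtype (WT) libraries, left to right. Circles are the 5 deeper and triangles the 4 shallower libraries, and lines give the mean ± SD; the 3 groups overlap in every panel, and Slc12a7 has the widest relative spread, 0.292 to 8.62 FPKM.

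By mean FPKM the order was Car2, Aqp1, Kcnn4, Car1, Piezo1, Slc12a4, Slc12a7. Each gene in this order was above the next in all 9 libraries, with 1 exception: Kcnn4 was above Car1 in 8 of 9, and Car1 was above Kcnn4 in wildtype 3. The ranges of neighbours did not overlap, except those of Kcnn4 and Car1 and those of Slc12a4 and Slc12a7. No source used here gives the gene lengths behind the FPKM. In an alternative added after the data were seen, with reads divided by the merged exon length in GENCODE M21, Car1 stood above Kcnn4 in all 9 libraries, and the order of the other genes was the same. The order of Kcnn4 and Car1 therefore depends on the length used.

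In knockout against wildtype, none of the 7 genes was called by limma on log2(FPKM + 1) at a Benjamini-Hochberg adjusted p below 0.05, and over all 9543 genes tested 0% were called. None reached an unadjusted p below 0.05 either, where 0.451% of all genes did. None of the 7 had groups that did not overlap, against 1.08% of all genes that lay wholly higher and 1.4% wholly lower in knockout. The adjusted p was 0.9997 for each of the 7.

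The estimates of that comparison were near 0 and their intervals of different width. Car2 averaged 2592 ± 135.2 FPKM in knockout and 2718 ± 279 FPKM in wildtype libraries (SD, n = 3 each), a log2 difference of -0.064 with a 95% interval of -0.39 to 0.26. For Aqp1, with 771 ± 137 FPKM in knockout and 808 ± 116 FPKM in wildtype libraries, it was -0.074 (-0.45 to 0.30). The data therefore left room for changes of these 2 abundant genes down to 0.734-fold and up to 1.23-fold.

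Car1 averaged 232 ± 40.1 FPKM in knockout and 279 ± 120.5 FPKM in wildtype libraries, a log2 difference of -0.20 (-0.79 to 0.40). This sign rested on 1 library, since without wildtype 3 the difference was 0.13. Kcnn4 averaged 287 ± 52.2 FPKM in knockout and 263 ± 26.3 FPKM in wildtype libraries, a difference of 0.12 (-0.23 to 0.47). Piezo1 averaged 20.75 ± 1.90 FPKM in knockout and 20.65 ± 4.08 FPKM in wildtype libraries, a difference of 0.020 (-0.34 to 0.38).

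Slc12a4 averaged 10.8 ± 1.38 FPKM in knockout and 11.9 ± 4.01 FPKM in wildtype libraries, with a log2 difference of -0.086 (-0.57 to 0.40). Slc12a7 averaged 4.28 ± 3.77 FPKM in knockout and 3.41 ± 2.72 FPKM in wildtype libraries, with a difference of 0.33 (-1.13 to 1.79). Its interval spans 0.458-fold to 3.47-fold of FPKM + 1, and so includes both a fall and a rise. The size of the estimate depends on the scale: it was 0.68 with a pseudocount of 0.1 and 1.01 ± 1.02 (SE) by voom on recovered reads, both with a limma adjusted p of 0.9999. Both signs turned without wildtype 3, where the differences were 0.15 for Slc12a4 and -0.40 for Slc12a7.

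In heterozygous against wildtype, limma again called none of the 7 genes and 0% of the 9543 tested. The adjusted p was 0.9999 for each, and none had an unadjusted p below 0.05, against 1.18% of all genes. No gene of the 7 had groups apart, against 1.29% of all genes wholly higher and 3.07% wholly lower in heterozygous. Log2 differences ran from -0.18 for Car2 (interval -0.51 to 0.14) to 0.63 for Slc12a7 (-0.83 to 2.09). The Slc12a7 estimate was 1.09 with a pseudocount of 0.1 and 1.46 ± 0.996 (SE) by voom. The other 5 lay between -0.15 for Car1 and 0.16 for Slc12a4, with Aqp1 at -0.12, Kcnn4 at 0.061 and Piezo1 at 0.14.

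In knockout against heterozygous, limma called none of the 7 genes and 0% of the 9543 tested, with an adjusted p of 0.9996 for each. None had an unadjusted p below 0.05, against 0.587% of all genes, and none had groups apart, against 2.61% of all genes wholly higher and 1.88% wholly lower in knockout. Log2 differences ran from -0.29 for Slc12a7 (-1.75 to 1.17) and -0.25 for Slc12a4 (-0.73 to 0.23) to 0.12 for Car2 (-0.21 to 0.44). Car1 was at -0.047, Aqp1 at 0.049, Piezo1 at -0.12 and Kcnn4 at 0.056.

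This is the only comparison with at least 2 deeper libraries in both groups. Among those 4 libraries, an alternative added after the data were seen, Slc12a7 differed by -0.61 and Car2 by 0.25 on the log2 scale, with limma adjusted p of 0.264 and 0.282. Each comparison shares its libraries with the other 2, so their estimates are not independent. The median log2 difference of the 7 genes was -0.064 in knockout against wildtype, 0.061 in heterozygous against wildtype and -0.047 in knockout against heterozygous. Over all genes tested it was 0.009, -0.002 and 0.004.

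**Figure D3:**
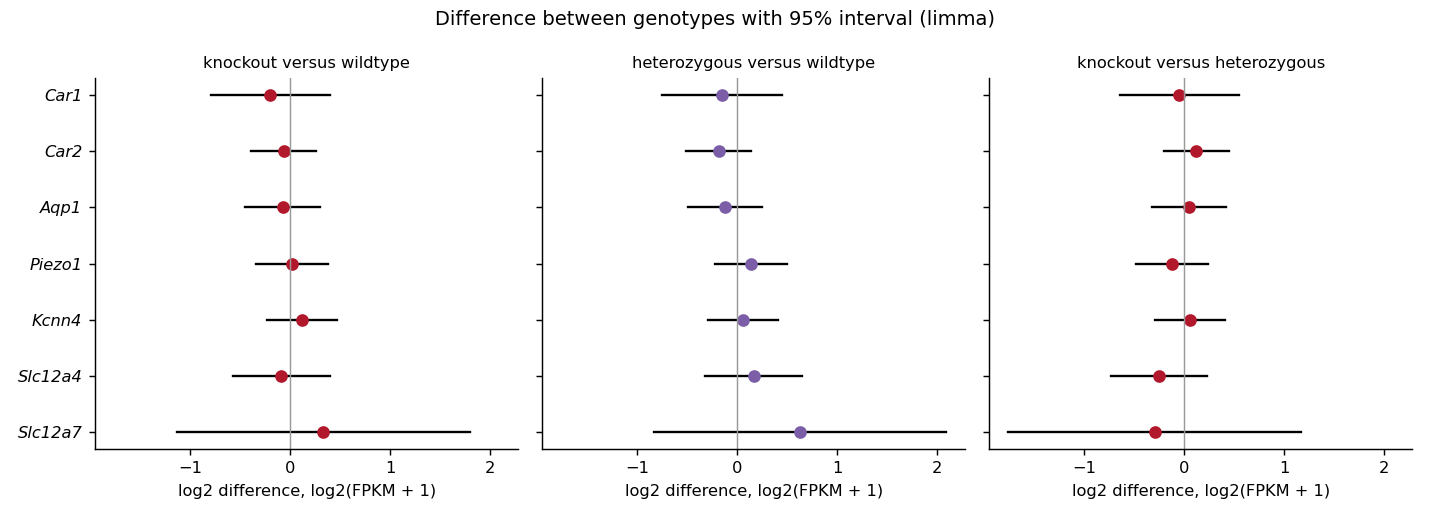
Log2 difference with its 95% interval (limma, 3 libraries a group) for each of the 7 genes in knockout minus wildtype, heterozygous minus wildtype and knockout minus heterozygous. Every interval includes 0, and those of Slc12a7 (-1.13 to 1.79 in knockout minus wildtype) are the widest.

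Ratios within a library do not depend on its size factor, so 2 were compared between genotypes by an exact 2-sided permutation test, which cannot give a p below 0.1 with 3 libraries against 3. The log2 ratio of Car1 to Car2 was -3.33, -3.75 and -3.41 in knockout, -3.33, -3.45 and -3.21 in heterozygous and -3.75, -3.82 and -2.52 in wildtype libraries. Wildtype 3 alone had a ratio above -3. The exact permutation p was 1 in knockout against wildtype, 1 in heterozygous against wildtype and 0.4 in knockout against heterozygous, each 1 after adjustment over the 3 comparisons.

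The log2 ratio of Slc12a4 to Slc12a7, the balance of KCC1 to KCC4, was 2.35, 0.19 and 2.51 in knockout libraries. It was 1.61, 1.02 and 1.95 in heterozygous and 0.66, 1.24 and 5.80 in wildtype libraries. The message of KCC1 exceeded that of KCC4 in all 9 libraries, by least in knockout 2 and by most in wildtype 3. The exact permutation p was 0.8 in knockout against wildtype, 0.9 in heterozygous against wildtype and 0.9 in knockout against heterozygous, each 0.9 when adjusted.

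The 7 genes and the summed macrophage and monocyte markers were then related to each other over all 9 libraries, with the genotypes pooled. These 28 relations used log2 values and exact permutation p-values with Benjamini-Hochberg adjustment. Pearson's r passed an adjusted p of 0.05 in 7 of the 28. Spearman's rho passed in 0 of 28, with 9 at an unadjusted p below 0.05.

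Piezo1 and Slc12a4 were high and low in the same libraries: r was 0.90 (exact permutation p = 0.000708, adjusted 0.0123) and rho was 0.90 (p = 0.00203, adjusted 0.0568). Wildtype 3 was highest for both genes, and wildtype 1 lowest for both. Without heterozygous 2 and wildtype 3, the 2 libraries farthest from the median of Piezo1, r was 0.84 over 7 libraries (exact permutation p = 0.0163). With values centred within the deeper and within the shallower libraries, r was 0.87. Both genes were also lower where macrophage markers were higher, with r of -0.71 for Piezo1 and -0.76 for Slc12a4 (both short of the threshold, adjusted exact permutation p = 0.053), and the part of those cells in the relation was not tested. The 2 genes lie far apart on chromosome 8, Slc12a4 at 105943590 to 105966097 and Piezo1 at 122481698 to 122551329. Whether position or promoter sequence had a part in the relation was not tested.

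Aqp1 and Slc12a7 moved in opposite directions: r was -0.89 (exact permutation p = 0.000876, adjusted 0.0123) and rho was -0.82 (p = 0.0108, adjusted 0.1005). Aqp1 was lowest and Slc12a7 highest in knockout 2, and the reverse held in wildtype 3. Without these 2 libraries, which are also the farthest from the median of Aqp1, r was -0.74 over 7 libraries (exact permutation p = 0.0492). The 2 farthest from the median of Slc12a7 are knockout 3 and wildtype 3, and leaving those out was not tried for this pair. Centred within depth sets, r was -0.86. Aqp1 fell and Slc12a7 rose with the macrophage markers, with r of -0.78 and 0.895 (adjusted exact permutation p = 0.0355 and 0.0129), and their part in the relation of the 2 genes was not tested.

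The other 5 relations that passed had a p above 0.05 once 2 libraries were left out, which also leaves fewer libraries. These were the 2 farthest from the median of the gene named first. Car1 was lower where macrophage markers were higher (r = -0.935, exact permutation p = 0.00176, adjusted 0.0129; rho = -0.83, adjusted 0.1005). Its r was -0.91 centred within depth sets, -0.76 without wildtype 3 and -0.63 (exact permutation p = 0.138) without knockout 2 and wildtype 3. Slc12a7 against the macrophage markers gave a centred r of 0.86, 0.72 without wildtype 3 and 0.69 (exact permutation p = 0.0796) without knockout 3 and wildtype 3. These values are close to those of Aqp1 with Slc12a7, and differences between the relations were not tested.

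Car1 and Slc12a7 had r of -0.895 (exact permutation p = 0.00266, adjusted 0.0129), and -0.53 (p = 0.214) without knockout 2 and wildtype 3. Car1 and Aqp1 had r of 0.81 (exact permutation p = 0.00276, adjusted 0.0129), and 0.58 (p = 0.184) without them. Aqp1 against the macrophage markers gave -0.47 (exact permutation p = 0.277) without them. Car2 and Kcnn4 took part in none of the relations that passed. The r of Kcnn4 changed with the libraries used. Over all 9 it was -0.54 with Slc12a7 and -0.41 with the macrophage markers. Without wildtype 3 these values were -0.91 and -0.84, for which no p was computed. Without knockout 2 and wildtype 1, the 2 farthest from the median of Kcnn4, they were -0.24 and 0.12. Centred within depth sets they were -0.041 and -0.009.

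**Figure D4:**
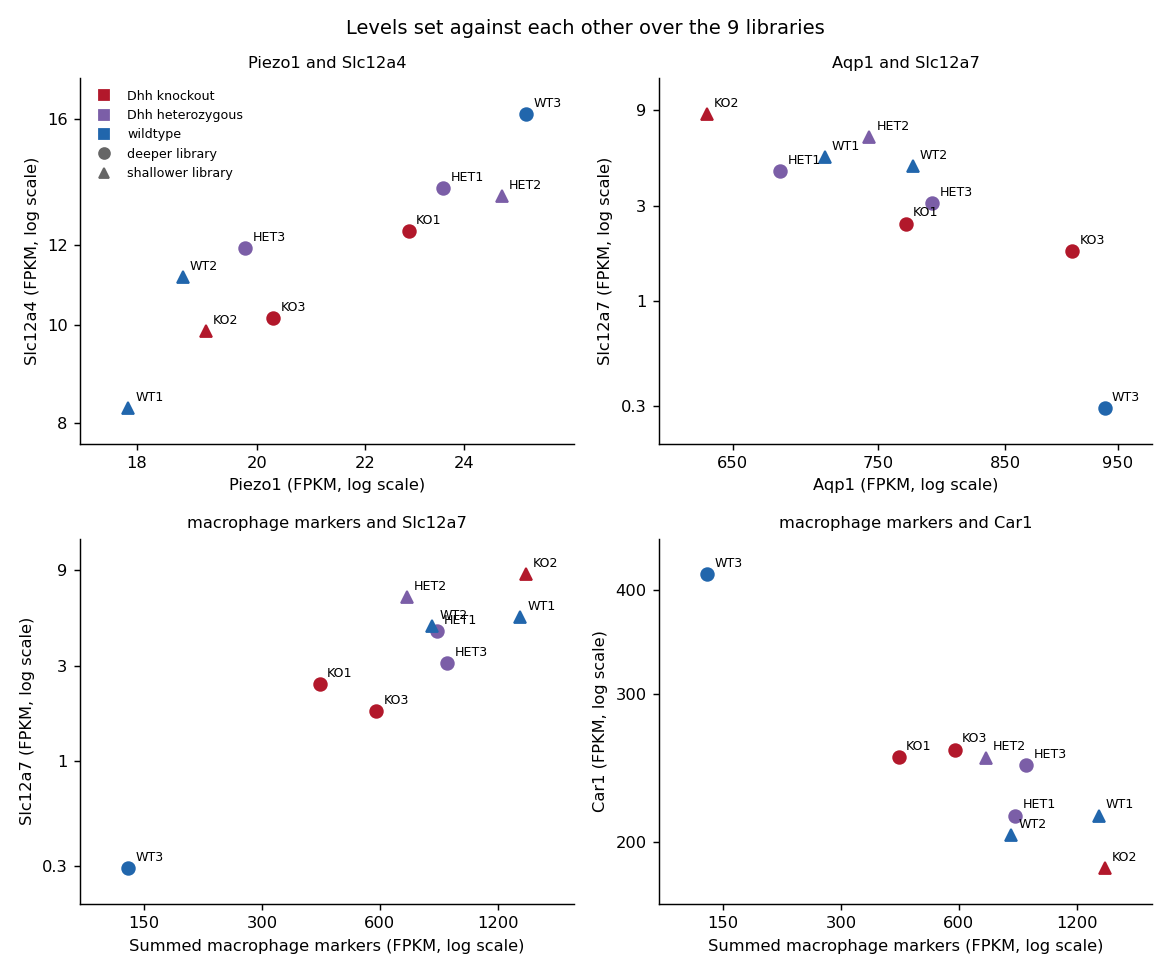
Each point is 1 of the 9 libraries, coloured by genotype (knockout, heterozygous, wildtype), in 4 panels with log axes in FPKM: Piezo1 against Slc12a4, Aqp1 against Slc12a7, and the summed macrophage and monocyte markers against Slc12a7 and against Car1. Piezo1 and Slc12a4 rise together (r = 0.90) and Aqp1 and Slc12a7 run in opposite directions (r = -0.89), with the 3 genotypes intermixed along both; wildtype 3 and knockout 2 sit at the ends of the macrophage panels.

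The genes most like each member were taken as the 3 with the highest Pearson r over the 9 libraries among the 9543 tested. They are highest by this choice, so no p is given. Among those of Car2 were Vopp1 (r = 0.977) and Cd24a (a small surface glycoprotein, 0.964), and each had an r of 0.976 without wildtype 3. Kcnn4 was followed by Mis12 (a kinetochore protein, 0.972), the transcription factor gene Maz (0.97) and Epor (the erythropoietin receptor, 0.968). Aqp1 was followed by the splicing factor gene Srsf7 (0.971), Mgst3 (a microsomal glutathione transferase, 0.967) and D030056L22Rik (0.965).

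For Piezo1 they were Wdr34 (0.968), Anapc1 (a subunit of the anaphase-promoting complex, 0.954) and Gltscr1l (0.954), and for Slc12a4 they were Cmip (0.982), Pdia2 (a protein disulfide isomerase, 0.973) and Mms22l (a DNA repair factor, 0.973). For Car1 they were Ccdc51 (0.979), Psmd2 (a proteasome subunit, 0.974) and Ubxn1 (0.97), whose r without wildtype 3 were 0.956, 0.886 and 0.876. For Slc12a7 they were Parp3 (an ADP-ribosyltransferase, 0.996), Ccnd2 (cyclin D2, 0.989) and Ece1 (endothelin-converting enzyme, 0.988), with r of at least 0.978 without wildtype 3. Ccnd2 ran from 0.337 to 5.44 FPKM and Ece1 from 0.714 to 5.67 FPKM over the 9 libraries.

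The related genes were grouped in 5 lists by role. Limma called 0 of their 36 tested members in each of the 3 comparisons, where 0% of all genes were called. An unadjusted limma p below 0.05 was reached by 0 of the 36. Of all genes, 0.451% reached it in knockout against wildtype, 1.18% in heterozygous against wildtype and 0.587% in knockout against heterozygous. Of the other carbonic anhydrases 2 of 14 were tested, and of the other aquaporins 1 of 11. Aqp9 averaged 49.4 ± 11.4 FPKM in knockout, 41.9 ± 6.42 FPKM in heterozygous and 42.5 ± 5.87 FPKM in wildtype libraries (SD, n = 3 each), a log2 difference of 0.19 ± 0.197 (SE) in knockout minus wildtype.

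Of the other cation-chloride cotransporters and their kinases, 8 of 14 were tested. Wnk1, the kinase at the head of the pathway that restrains the potassium chloride cotransporters and activates the sodium-dependent ones, was the most abundant, with 114 ± 18.3 FPKM in knockout, 111 ± 9.16 FPKM in heterozygous and 112 ± 20.9 FPKM in wildtype libraries. Oxsr1, the kinase that WNK1 activates, averaged 19.3 ± 2.42 FPKM in knockout, 19.6 ± 0.523 FPKM in heterozygous and 19.4 ± 2.19 FPKM in wildtype libraries. Cab39, a scaffold that helps OXSR1 act, had 20.5, 20.3 and 21.4 FPKM in heterozygous against 22.5, 21.5 and 26.6 FPKM in wildtype libraries. Its groups did not overlap there, and 3.07% of all genes tested also lay wholly lower in heterozygous. The log2 difference of -0.17 ± 0.128 (SE) had an unadjusted limma p of 0.214. The median log2 difference of the 8 was 0.009 in knockout against wildtype and 0.045 in heterozygous against wildtype.

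Of the other mechanosensitive, potassium and volume channels, 10 of 15 were tested. The chloride channel gene Clcn3 averaged 120 ± 29.2 FPKM in knockout, 105 ± 8.72 FPKM in heterozygous and 114 ± 12.1 FPKM in wildtype libraries. Tmem63a, a stretch-activated channel, averaged 15.9 ± 1.11 FPKM in knockout, 15.9 ± 3.12 FPKM in heterozygous and 16.2 ± 4.51 FPKM in wildtype libraries. Lrrc8c, a subunit of the volume-regulated anion channel, averaged 10.9 ± 1.17 FPKM in knockout, 12.2 ± 0.23 FPKM in heterozygous and 12.5 ± 3.61 FPKM in wildtype libraries. Kcnn1, a calcium-activated potassium channel related to Kcnn4, was near the testing limit, at 0.965, 0.811 and 1.64 FPKM in knockout against 0.798, 0.707 and 0.758 FPKM in wildtype libraries. The groups did not overlap, with an unadjusted limma p of 0.222, and 1.08% of all genes tested also lay wholly higher in knockout.

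All 15 of the other red cell ion, gas and urea transporters were tested. Slc4a1 (band 3, the anion exchanger that works with the carbonic anhydrases) averaged 3273 ± 297 FPKM in knockout, 3115 ± 321 FPKM in heterozygous and 3479 ± 188 FPKM in wildtype libraries. Rhd (a Rhesus membrane protein) averaged 1136 ± 202 FPKM in knockout, 1025 ± 98.3 FPKM in heterozygous and 1134 ± 31.8 FPKM in wildtype libraries. Stom (stomatin) averaged 476 ± 100.3 FPKM in knockout, 439 ± 40.8 FPKM in heterozygous and 471 ± 10.9 FPKM in wildtype libraries. Slc4a7, a sodium bicarbonate cotransporter, had 0.657, 0.931 and 0.634 FPKM in knockout against 1.16, 1.71 and 1.00 FPKM in heterozygous libraries. These groups did not overlap, with a log2 difference of -0.39 ± 0.187 (SE) and an unadjusted limma p of 0.0681. In that comparison 1.88% of all genes tested lay wholly lower in knockout. The 15 transporters had median log2 differences of -0.006, 0.004 and -0.017 in the 3 comparisons.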

How the data were processed

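Total RNA of sorted CD71+Ter119+ spleen cells was sequenced in 9 libraries, per the labels. FPKM-type values were deposited by the authors in 1 table, a column for each library. Per the submitters' processing notes, TopHat, Picard, DESeq2 and the build mm10 were used. The sources used here do not give the annotation, the strandedness or the read pairing.

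The values of each gene above 0 in 2 or more libraries were whole multiples of what 1 read is worth. This held for 14147 of 14147 genes within 0.05 of a read and gave 7.05 to 14.23 M reads a library. For genes above 0 in few libraries such a fit could hardly fail. The library factors found from these steps were also compared with median-of-ratios size factors of the recovered reads. Over 11276 genes above 0 in all libraries, they differed by at most 5.18e-11. The deposited FPKM are thus reads scaled by a size factor. Depth limits precision for counting error only, and 0 counts leave up to 3 reads possible. All 36 pairs of libraries differed by more than counting noise, with a chi-square of at least 8.69 a degree of freedom, so none looked like a library deposited again.

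The 9543 genes that reached 1 FPKM in 3 or more libraries were tested. Group means on the log2(FPKM + 1) scale were fitted with limma 3.58.1 (R 4.3.3) to all 9 libraries together, with a trend, with p-values adjusted by Benjamini-Hochberg over all genes tested in each of 3 comparisons. Voom on recovered reads was an alternative. Ratios used the exact permutation test of scipy 1.17.1. Relations used exact permutation over all orders of the libraries, computed with numpy 2.4.6 (Python 3.11.15, pandas 2.3.3). Figures used matplotlib 3.10.9. Positions are from GENCODE M21, which held 20028 of the 20368 identifiers (98.3%). Promoters are from RefSeq.

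The 7 genes, the lists and the tests were chosen with earlier results of these data known. The rule for other named genes took the 3 most abundant and every called gene of each list, the 3 genes most like each member, and Dhh and erythroid genes such as Gata1, Klf1 and Tfrc; some of the genes it took are not reported here. Slc4a7, Kcnn1, Ctu2, Gm16156 and the genes listed at 0 were named after their values were seen. Samples with the same replicate number deviated together in knockout and heterozygous libraries (correlations 0.2, 0.18 and 0.41, each over 0.1), but not in each pair with wildtype (-0.57, 0.51 and 0.33 with knockout, 0.13, 0.18 and 0 with heterozygous), and the labels name no shared litter or day.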

Additional observations from a re-analysis of the deposited data

How the results depend on the processing

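The number of genes called was 0 under all 55 alternatives tried over the 3 comparisons (other filters and another pseudocount, quantile normalization, no trend, a depth covariate, voom on recovered reads, only the groups compared, the replicate block, the deeper libraries and each library left out). Limma had 43, 113 and 56 genes at an unadjusted p below 0.05 in knockout versus wildtype, heterozygous versus wildtype and knockout versus heterozygous, and voom 38, 91 and 53. With the replicate number as a block, 0 genes and 0 of the 7 members were called in each comparison, and 56, 161 and 66 genes had an unadjusted p below 0.05, so the pairing changed no call. Of 385 values of the 7 genes under alternatives (the ratios not counted), 359 kept their sign and side of the threshold and 26 changed sign; none was called, and the lowest adjusted p was 0.264.

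Quantile normalization gave 0.088 for Car2 and 0.016 for Aqp1 in knockout versus wildtype, 0.0817 and 0.0937 in heterozygous versus wildtype, and -0.0777 for Aqp1 and -0.0411 for Kcnn4 in knockout versus heterozygous; the cause was not tested. The 4 deeper libraries gave 0.15 for Car1 in knockout versus heterozygous, with fewer samples. Leaving out 1 library at a time, the knockout versus wildtype differences ran from -0.38 to 0.13 for Car1, -0.20 to 0.0592 for Aqp1, -0.0714 to 0.17 for Piezo1, -0.30 to 0.15 for Slc12a4 and -0.40 to 0.73 for Slc12a7. In heterozygous versus wildtype they ran from -0.34 to 0.18 for Car1, -0.0198 to 0.12 for Kcnn4, -0.0492 to 0.40 for Slc12a4 and -0.11 to 1.03 for Slc12a7. In knockout versus heterozygous they ran from -0.13 to 0.10 for Car1, -0.077 to 0.18 for Aqp1, -0.0441 to 0.21 for Kcnn4 and -0.84 to 0.0548 for Slc12a7. The log2 ratio of Car1 to Car2 differed by -0.36 to 0.29 in knockout versus wildtype and -0.20 to 0.45 in heterozygous versus wildtype. That of Slc12a4 to Slc12a7 differed by -1.84 to 0.73 in knockout versus wildtype, -1.99 to 0.58 in heterozygous versus wildtype and -0.26 to 0.90 in knockout versus heterozygous. With 3 libraries a group the median gene had a 95% interval of ± 0.42 (log2) in knockout versus wildtype, which limits what differences could be seen.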
